A study of Mus musculus with 4 samples.

Results

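The genes described here are Trp53, which encodes the tumour suppressor p53, its inhibitors Mdm2 and Mdm4, and 7 genes known as p53 targets or partners: Zmat3, Phlda3, Aen, Trp53inp1, Btg2, Plk2 and Ei24. They were chosen by symbol, under a rule that uses no measured values, but with earlier results of these data known. Of these 10 genes, 9 had a row among the 28141 genes of the table, and all 9 were among the 15527 genes tested. Btg2, which encodes an antiproliferative protein, was missing from the rows used here. RNA-seq had been run on polyadenylated RNA of leukaemia cells from the bone marrow of C57BL/6 mice, in a study of leukaemia stem cells (LSCs) in chronic myeloid leukaemia. There were 2 libraries of wild-type LSCs (WT) and 2 of LSCs with a conditional knockout of Ybx1, whose Y-box protein binds nucleic acids (Ybx1 cKO). The Cre driver, the deleted exons, the age of the mice and the way the leukaemia was started are not given in the sources used here. No label ties the 2 libraries of a group to different mice; the spread behind each p-value is that between these libraries and may be technical.

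p53 is a transcription factor that is kept low in unstressed cells. MDM2 is a ubiquitin ligase that marks p53 for destruction, MDM4 binds p53 and blocks its activity, and Mdm2 is itself a p53 target, which closes a feedback loop. When DNA damage or a fault in ribosome assembly frees p53 from MDM2, it switches on genes for cell cycle arrest, apoptosis, DNA repair and metabolism. p53 is regulated mainly through protein stability, which RNA levels do not show.

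p53 binds DNA as 4 subunits on a pair of half-sites, each of 10 bases. Half-sites were looked for in RefSeq promoter windows of 300 bases (GRCm38.p6, from 250 bases before to 50 after a start site), using the p53 half-site consensus, which reads the same on both strands, with no mismatch allowed. Windows were found for 8 of the 10 genes, and not for Zmat3 and Trp53inp1. A half-site lay in a window of 4 of the 8, Trp53, Mdm2, Aen and Ei24, and of 9.55% of the 27025 genes with a window. The sequences are shown because they let the promoters of the central genes be set beside that of Cdkn1a, the textbook p53 target, and capitals mark the half-site. Each is 30 bases, written 5′ to 3′ along the gene's own strand. The half-site begins 75 bases before the start in Trp53, 186 in Mdm2, 10 in Ei24 and 51 in Cdkn1a, and in Aen 121 before one annotated start and 10 after another. For Cdkn1a the distance is to the upstream start, and the window of another annotated start, chr17:29093769, had 0 half-sites. The Aen and Ei24 sequences overlap annotated exons.
Trp53, chr11:69580274-69580303, plus strand: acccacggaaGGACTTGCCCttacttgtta
Mdm2, chr10:117710925-117710954, minus strand: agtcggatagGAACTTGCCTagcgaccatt
Aen, chr7:78895927-78895956, plus strand: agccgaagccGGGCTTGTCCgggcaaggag
Ei24, chr9:36797325-36797354, minus strand: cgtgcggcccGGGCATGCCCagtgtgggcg
Cdkn1a, chr17:29090918-29090947, plus strand: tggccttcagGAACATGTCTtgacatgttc

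In Cdkn1a the 10 bases that follow the half-site differ from the consensus at 1 position, and a second full match lies 12 bases before it. The best partner within 13 bases of the half-site had 2 mismatches in Aen, 3 in Trp53, 3 in Ei24 and 4 in Mdm2. The p53-responsive promoter of Mdm2 is known to lie inside the gene, and this window covers the upstream one. The 250 bases before the upstream start of Mdm2 (chr10:117710759-117711008, minus strand), with its half-site in capitals, overlap no annotated exon.
Mdm2 upstream promoter: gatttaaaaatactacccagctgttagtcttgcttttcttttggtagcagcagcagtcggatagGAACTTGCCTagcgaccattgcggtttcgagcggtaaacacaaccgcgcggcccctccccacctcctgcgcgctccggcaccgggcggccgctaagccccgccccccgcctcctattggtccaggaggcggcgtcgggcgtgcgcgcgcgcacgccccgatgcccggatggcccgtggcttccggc

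A match describes letters only and is not a binding site. No binding was measured here.

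The table gives 1 value per gene and library on a log scale and no counts, so depth is unknown. Levels below are log2 levels, obtained by multiplying the deposited values by 0.693. That factor was inferred from the noise between replicates, as described under the processing. If the deposited values were plain log2, each log2 fold change would be 1.44 times as large, with the same p-values. Ybx1, the targeted gene, stood at log2 levels of 9.31 and 9.41 in WT and 8.19 and 8.13 in cKO. Both cKO libraries were lower, the direction the label gives, but 43.6% of the WT level remained (log2 fold change -1.20, SE 0.08). Among stem and progenitor markers, Kit, Cd34 and Flt3 had no row. Ly6a, which encodes the stem cell antigen Sca-1, had log2 levels of 6.30 and 6.71 in WT and 5.85 and 5.77 in cKO, lower in both cKO libraries. The transcription factor gene Mecom had log2 levels of 11.72 and 11.71 in WT and 11.07 and 11.15 in cKO, lower in both cKO libraries.

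The p53 gene group was lower in Ybx1 cKO. Of the 9 genes tested, 7 fell, 0 rose and 2, Trp53inp1 and Ei24, did not pass the test (limma, Benjamini-Hochberg adjusted p under 0.05 over all 15527 genes). Over all genes tested, 17.8% were called lower, 19.5% higher and 37.4% in either direction. The log2 fold changes (cKO minus WT) of the 9 genes ran from -0.73 for Phlda3 to -0.10 for Mdm2, with a median of -0.42, beside 0.00255 for all genes tested. Both cKO libraries lay below both WT libraries for 8 of the 9, and for 32.4% of all genes tested, while 32.7% of all genes tested had both cKO libraries above both WT libraries. With 2 libraries against 2, an exact two-sided permutation test of a single gene cannot go below p = 0.333, so calls rest on the spread shared across genes. With a prior variance that is not allowed to vary with level, Trp53 and Phlda3 alone of the 9 were called, as were 2267 of all genes tested.

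**Figure D1:**
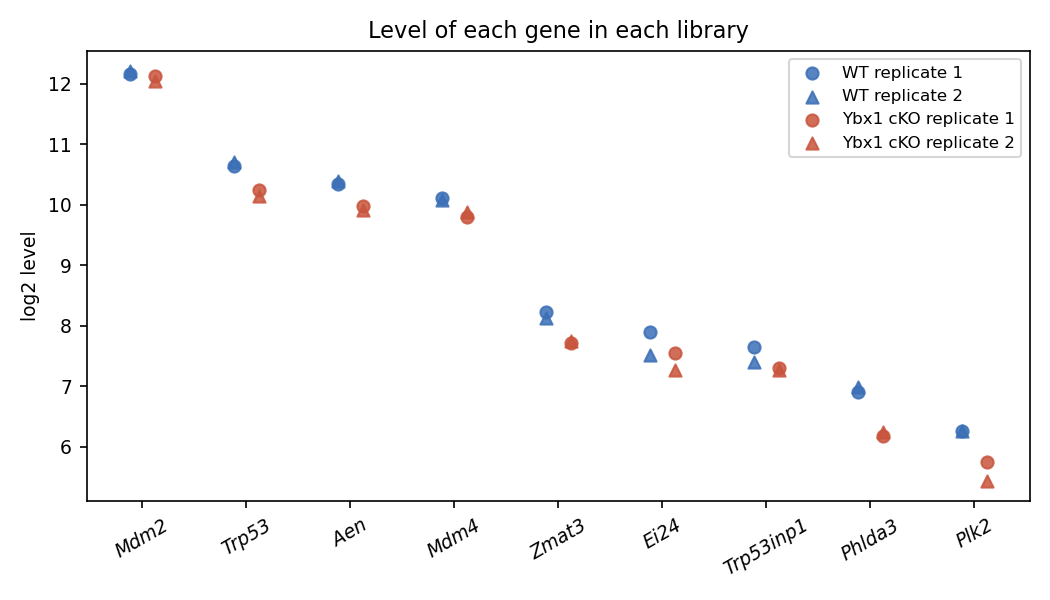
Log2 level (y axis) of the 9 measured genes (x axis) in each library; blue marks WT, red marks Ybx1 cKO, circles replicate 1 and triangles replicate 2. Trp53, Aen, Zmat3, Phlda3 and Plk2 show a clear step down in both cKO libraries, the Mdm2 points nearly touch, and the Ei24 groups overlap; heights of different genes are not corrected for gene length.

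Trp53, on chr11:69580359-69591873 (plus strand, GRCm38), stood at log2 levels of 10.64 and 10.70 in WT and 10.24 and 10.15 in cKO. The nearest WT and cKO libraries were 0.40 apart, and the larger difference between replicates was 0.09. Trp53 therefore fell 1.39-fold (log2 fold change -0.48, SE 0.05, limma adjusted p = 3.4e-08), to 71.9% of its WT level. This fall was called under every alternative processing tried and without each library in turn. No exon base of Trp53 is shared with another gene of GENCODE M21, and the pseudogene Trp53-ps lay far below the filter, with log2 levels from -1.86 to -1.71.

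Mdm2, on chr10:117688875-117710758 (minus strand), had log2 levels of 12.17 and 12.21 in WT and of 12.13 and 12.05 in cKO. The groups did not overlap, but the gap between the nearest libraries, 0.04, was smaller than the difference between the cKO replicates, 0.07. Its fall was 1.07-fold (log2 fold change -0.10, SE 0.03, limma adjusted p = 0.021). Mdm2 no longer passed when WT replicate 2 (adjusted p = 0.18) or cKO replicate 2 (adjusted p = 0.20) was left out, or when the libraries were set to a common median (adjusted p = 0.44), so a change of Mdm2 RNA is not firmly shown.

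Mdm4, on chr1:132959484-133030561 (minus strand), had log2 levels of 10.11 and 10.08 in WT and of 9.80 and 9.88 in cKO. Both cKO libraries were lower, by more than the replicates differed. Mdm4 fell 1.20-fold (log2 fold change -0.26, SE 0.06, limma adjusted p = 6.3e-04), a change between those of Mdm2 and Trp53.

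Ratios within a library do not change when a whole library is shifted, though quantile normalization changes them. The log2 ratio of Mdm2 to Trp53 was 1.52 ± 0.01 in the WT libraries and 1.89 ± 0.01 in the cKO libraries (SD, n = 2 each), 0.38 higher in cKO. The Mdm2 transcript was thus more abundant relative to Trp53 in both cKO libraries. The log2 ratio of Mdm4 to Trp53 was -0.54 and -0.62 in WT and -0.44 and -0.27 in cKO, higher in cKO by 0.22 and without overlap. The log2 ratio of Aen to Trp53 moved by 0.06, from -0.31 ± 0.01 in WT to -0.25 ± 0.01 in cKO (SD, n = 2 each). Under quantile normalization the changes were 0.32 for Mdm2, 0.23 for Mdm4 and 0.06 for Aen. Other ratios to Trp53 went the other way, by -0.26 for Phlda3 and -0.19 for Plk2 (-0.16 and -0.12 under quantile normalization). Those of Zmat3 (0.03), Trp53inp1 (0.24) and Ei24 (0.17) rose. These ratios were chosen after the levels were seen and are given without a test; they show that the genes changed unequally, not which of them stayed constant.

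**Figure D2:**
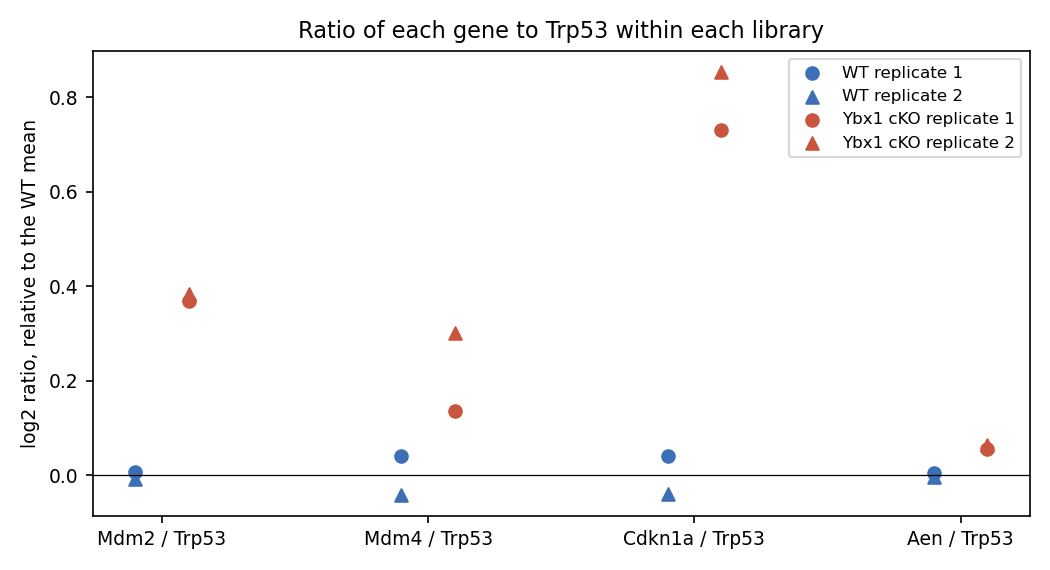
Log2 ratio of 4 genes to Trp53 within each library (y axis), set relative to the mean of the WT libraries; blue marks WT, red marks Ybx1 cKO, circles replicate 1 and triangles replicate 2. Each of the 4 ratios is higher in both cKO libraries, by 0.79 for Cdkn1a, 0.38 for Mdm2, 0.22 for Mdm4 and 0.06 for Aen. For Cdkn1a the change is 0.54 under quantile normalization. Of the genes not drawn, Phlda3 (-0.26) and Plk2 (-0.19) have lower mean ratios in cKO, and Zmat3, Trp53inp1 and Ei24 higher ones.

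Among the 9 genes, Phlda3 and Plk2 had the largest falls. Phlda3, which encodes a p53-induced repressor of AKT signalling, lies on chr1:135766119-135769136. It had log2 levels of 6.91 and 6.98 in WT and 6.18 and 6.25 in cKO, with 0.66 between the nearest libraries of the groups. It fell 1.66-fold (log2 fold change -0.73, SE 0.17, limma adjusted p = 9.4e-04). Replicates within a group differed by 0.07 at most, so the step was much larger than their spread.

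Plk2, a polo-like kinase induced by stress and p53, lies on chr13:110395046-110400844. Its log2 levels were 6.26 and 6.27 in WT and 5.76 and 5.44 in cKO. It fell 1.58-fold (log2 fold change -0.66, SE 0.21, limma adjusted p = 0.015). Its cKO replicates were 0.32 apart, and Plk2 no longer passed once WT replicate 1 (adjusted p = 0.078), WT replicate 2 (0.083) or cKO replicate 2 (0.067) was left out, with log2 fold changes from -0.82 to -0.51 over the 4 omissions. Plk2 had the lowest log2 level of the 9 genes.

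Zmat3, whose zinc finger protein binds RNA, lies on chr3:32334792-32366014. It had log2 levels of 8.23 and 8.14 in WT and 7.72 and 7.75 in cKO. Zmat3 fell 1.36-fold (log2 fold change -0.45, SE 0.10, limma adjusted p = 1.2e-03), and its groups were 0.38 apart. Aen, an exonuclease that p53 induces during apoptosis, lies on chr7:78895854-78911209 and had log2 levels of 10.34 and 10.39 in WT and 9.99 and 9.91 in cKO. Aen fell 1.33-fold (log2 fold change -0.42, SE 0.05, limma adjusted p = 7.4e-07), and each cKO library was below each WT library. Both genes kept their calls without each library in turn.

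Trp53inp1 and Ei24 did not pass the test, though both did when levels were scaled to the library sum (log2 fold changes -0.36 with adjusted p = 0.026 and -0.43 with adjusted p = 0.011), and Ei24 did with the replicate block (adjusted p = 0.047). Trp53inp1, a stress-induced nuclear protein that helps p53 activate its targets, lies on chr4:11156431-11174379. It had log2 levels of 7.64 and 7.40 in WT and 7.30 and 7.28 in cKO (log2 fold change -0.24, SE 0.13, limma adjusted p = 0.17). Both cKO libraries were below both WT libraries, but the WT replicates differed by 0.24, as much as the groups did. Without WT replicate 1 its fold change was -0.12, and without WT replicate 2 it was -0.36, with no call in either case.

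Ei24, an endoplasmic reticulum protein of autophagy first known as a p53-induced gene, lies on chr9:36779159-36797393. It had log2 levels of 7.90 and 7.52 in WT and 7.55 and 7.27 in cKO (log2 fold change -0.30, SE 0.14, limma adjusted p = 0.088). One WT library lay below one cKO library, so the groups overlapped. It was called lower when WT replicate 2 (log2 fold change -0.49, adjusted p = 0.012) or cKO replicate 1 (-0.44, adjusted p = 5.9e-03) was omitted, and not in the other two omissions (-0.11 without WT replicate 1, -0.16 without cKO replicate 2). An antisense gene model, Gm26787, shares 6.66% of its exon bases, and the sources used here do not say whether counting used strand.

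**Figure D3:**
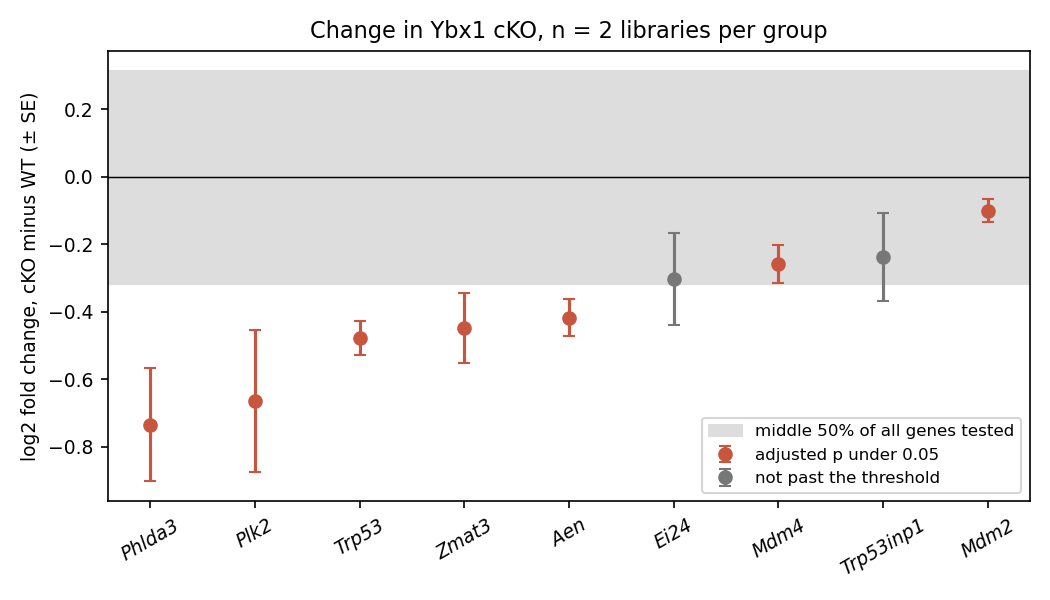
Log2 fold change, cKO minus WT (y axis, points), with SE bars for the 9 genes (x axis); red points passed the test and grey points did not, and the grey band holds the middle 50% of all genes tested, from -0.32 to 0.31. Phlda3 is lowest at -0.73, and Ei24, Mdm4, Trp53inp1 and Mdm2 lie inside the band.

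Per length of exon the genes can be set beside each other. Levels per 1000000 of the library sum and per kilobase of annotated exon in WT were 82.6 ± 2.2 for Mdm2, 36.3 ± 1.2 for Trp53 and 20.5 ± 0.6 for Aen (SD, n = 2 each). Mdm2 was the most abundant of the 9 genes in every library and Plk2 the least. Phlda3 (7.13 ± 0.28), Mdm4 (6.65 ± 0.04), Ei24 (3.90 ± 0.70), Trp53inp1 (2.57 ± 0.29), Zmat3 (2.29 ± 0.09) and Plk2 (1.54 ± 0.01) followed in WT (SD, n = 2 each). Trp53inp1 and Zmat3 were adjacent and differed by less than the spread of Trp53inp1. In cKO the order was the same except that Mdm4 (5.11 ± 0.18) stood above Phlda3 (3.93 ± 0.14). The length counts the exons of all annotated transcripts together, 14798 bases for Mdm4, so a gene with long exons that these cells do not use is understated.

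**Figure D4:**
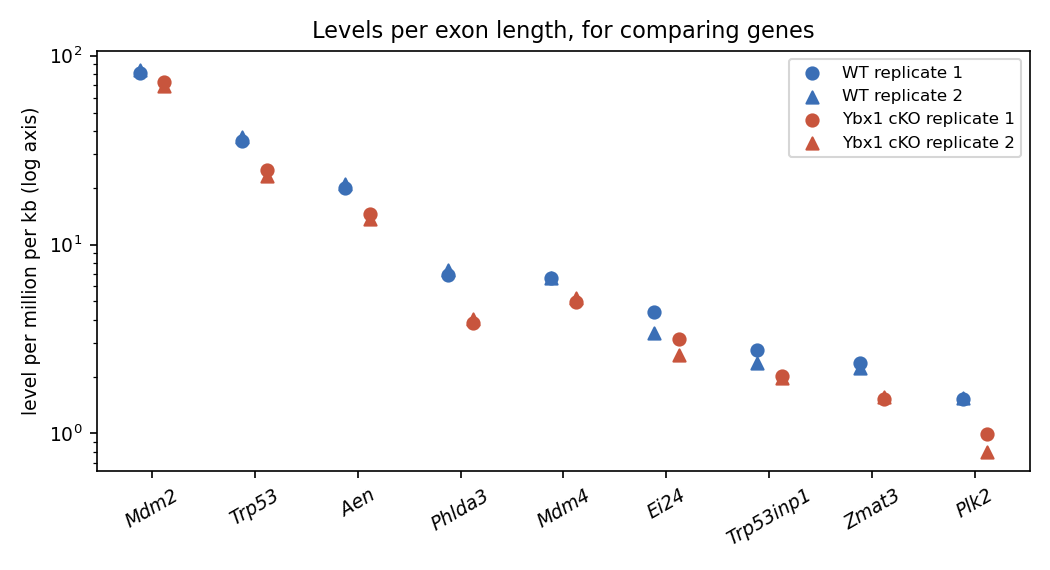
Level per 1000000 of the library sum per kilobase of exon (y axis, logarithmic) for the 9 genes (x axis); blue marks WT, red marks Ybx1 cKO, circles replicate 1 and triangles replicate 2. Mdm2 stands at 81.1 and 84.1 in WT, above Trp53 at 35.4 and 37.2, and Plk2 is lowest at 1.53 and 1.55.

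Other genes of the pathway moved in both directions. Over 93 further genes in 6 lists, 84 were tested, of which 24 fell, 16 rose and 44 did not pass, with a median log2 fold change of -0.10. That is 47.6% called, beside 37.4% of all genes. Of the 45 other p53 targets tested, 14 fell and 6 rose (44.4% called), with a median of -0.06. Among all genes tested, 17.8% were called lower and 19.5% higher. When levels were scaled to the library sum, the 84 genes split into 39 lower and 10 higher, and all genes into 4047 lower and 2132 higher, in place of 2768 and 3035. That scaling moves the median of all genes to -0.12, and those of the p53 cofactor and apoptosis target lists to -0.07 and -0.12, below 0; quantile normalization takes the apoptosis median to -0.10. Of the 24 pathway genes named below by rule, 10 lost their call with the untrended prior variance: Kat5, Trp53bp2, Csnk1a1, Chek1, Hipk2, Cdkn1a, Ccng1, Casp6, Trp53i13 and Rap2b. Of these, Casp6, Hipk2 and Trp53i13 also lost it when scaled to the library sum, and Chek1, Hipk2 and Trp53i13 without a filter on low values.

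The target list headed cell cycle arrest went both ways, with 4 of 11 lower and 2 higher (54.5% called, median 0.13). Cdkn1a and Gadd45a were higher, and Ccng1, Ckap2, Gtse1 and Psrc1 lower, so not every gene that fell is one that stops the cycle. The median was 0.02 under quantile normalization and 0.0097 when scaled to the library sum. Cdkn1a, the p21 inhibitor of cyclin-dependent kinases, had log2 levels of 13.79 and 13.77 in WT and 14.08 and 14.12 in cKO. It rose 1.24-fold (log2 fold change 0.32, SE 0.02, limma adjusted p = 2.0e-11), and both cKO libraries were above both WT libraries. Under quantile normalization its fold change was 0.02 and the call was lost (adjusted p = 0.49). Cdkn1a rose relative to Trp53 by 0.79 on the log2 scale within libraries, and by 0.54 under quantile normalization. Ccng1, a cyclin gene that p53 induces strongly, stood at log2 levels of 13.21 and 13.15 in WT and 12.80 and 12.78 in cKO and fell 1.31-fold (log2 fold change -0.39, SE 0.03, limma adjusted p = 2.3e-11). Ckap2 and Gtse1, whose products serve the mitotic spindle, fell as well. The log2 fold change was -1.20 for Ckap2 (SE 0.12, limma adjusted p = 1.9e-08) and -0.55 for Gtse1 (SE 0.06, adjusted p = 1.2e-07). Gadd45a, named after its value was seen, rose by 0.44 (SE 0.16, limma adjusted p = 0.028). An antisense gene model shares 19.1% of the Gadd45a exon bases.

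Of 13 apoptosis targets tested, 2 fell, 2 rose and 9 did not pass, with a median of 0.00406. That is 30.8% called, beside 37.4% of all genes tested, and scaled to the library sum 7 were lower and 0 higher. Pidd1, a death-domain protein that activates caspase-2, fell 1.92-fold (log2 fold change -0.94, SE 0.09, limma adjusted p = 5.2e-09), and Siva1 fell 1.36-fold (-0.45, SE 0.06, adjusted p = 4.2e-07). Trp53i13 rose by 0.32 (SE 0.10, adjusted p = 0.016), which did not hold when WT replicate 1 (adjusted p = 0.086) or cKO replicate 2 (0.13) was omitted. The executioner caspase gene Casp6 rose by 0.17 (SE 0.03, adjusted p = 1.8e-05) but had -0.04 under quantile normalization. The BCL2-family targets Bax, Bbc3 (PUMA) and Pmaip1 (NOXA), named here after their values were seen, did not pass. The log2 fold change was -0.01 for Bax (SE 0.04, limma adjusted p = 0.93; called lower at -0.10 under quantile normalization and -0.13 scaled to the library sum), 0.15 for Bbc3 (SE 0.16, adjusted p = 0.52) and -0.34 for Pmaip1 (SE 0.33, adjusted p = 0.47). The Pmaip1 replicates differed by more than its groups, with log2 levels of 5.03 and 4.42 in WT and 4.14 and 4.62 in cKO, so a change of that size was not detectable.

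Of 21 targets in metabolism, DNA repair and other functions, 8 fell and 2 rose (47.6% called, median -0.19). Tap1, the peptide transporter of antigen presentation, fell 1.49-fold (log2 fold change -0.58, SE 0.05, limma adjusted p = 2.4e-10). Slc19a2, a thiamine transporter gene, fell 1.90-fold (-0.93, SE 0.11, adjusted p = 1.5e-07), and the phosphatase gene Ptp4a3 fell 1.46-fold (-0.54, SE 0.07, adjusted p = 6.8e-07). Tap1 is also an interferon-induced gene. Rap2b, a small GTPase, rose 1.32-fold (0.41, SE 0.05, adjusted p = 1.1e-07), but 58.3% of its exon bases are shared with antisense gene models.

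**Figure D5:**
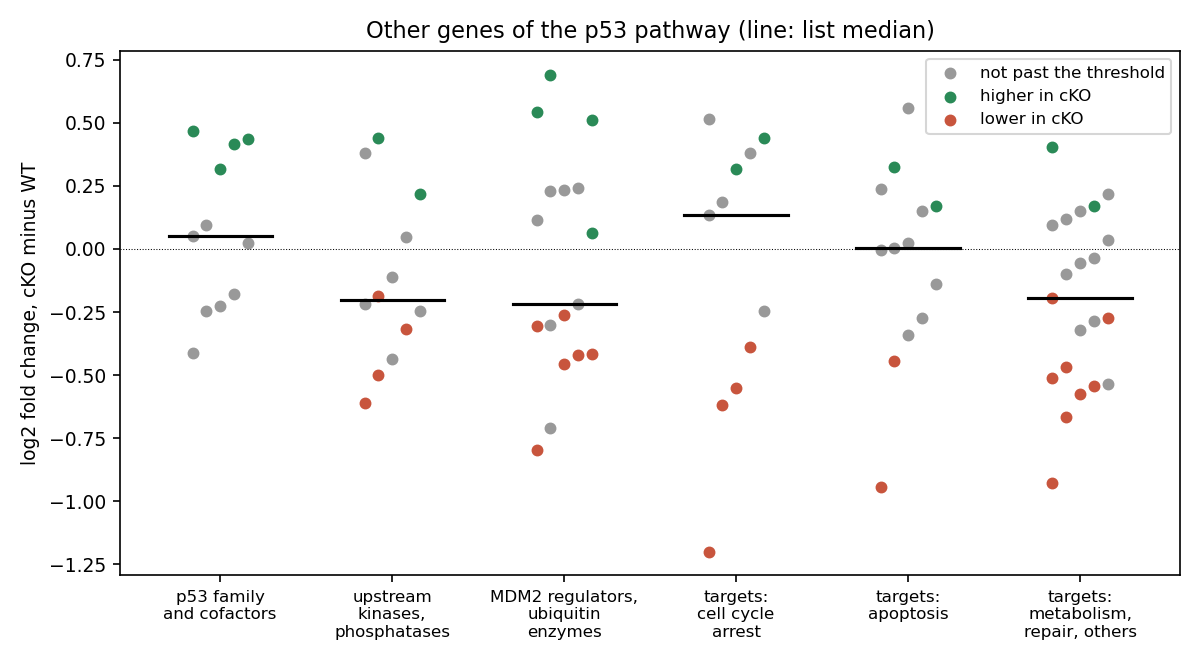
Log2 fold change, cKO minus WT (y axis), of each tested gene in 6 lists of the p53 pathway (x axis, with the 9 genes of the other plots left out); green points were called higher, red lower, grey did not pass, and the black line is the list median. Medians run from -0.22 for the list headed MDM2 regulators to 0.13 for the list headed cell cycle arrest. The latter is 0.02 under quantile normalization and 0.0097 scaled to the library sum.

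Upstream of p53 the lists were mixed as well. Of 11 tested relatives and cofactors of p53, 4 rose and 0 fell (median 0.05), which is 36.4% called, beside 37.4% of all genes tested. Scaled to the library sum, 4 were higher and 2 lower. Those that rose were the bromodomain cofactor gene Brd7 (log2 fold change 0.47, SE 0.05, limma adjusted p = 5.2e-08), 2 acetyltransferase genes, Kat5 (0.32, SE 0.05, adjusted p = 1.5e-05) and Crebbp (0.44, SE 0.08, adjusted p = 7.3e-05), and also Trp53bp2, whose ASPP2 protein binds p53 (0.42, SE 0.09, adjusted p = 3.5e-04). Of 12 kinases and phosphatases, 4 fell and 2 rose (50% called, median -0.20). The casein kinase 1 genes moved apart, with Csnk1d up by 0.44 (SE 0.04, limma adjusted p = 1.5e-09) and Csnk1a1, whose product acts with MDM4 against p53, down by 0.18 (log2 fold change -0.18, SE 0.03, adjusted p = 2.1e-05). The checkpoint kinase gene Chek1 fell by 0.61 on the log2 scale (SE 0.18, adjusted p = 7.3e-03), which did not hold when WT replicate 2 (adjusted p = 0.076) or cKO replicate 2 (0.081) was omitted. Hipk2 rose by 0.22 (SE 0.07, adjusted p = 0.018), which did not hold when WT replicate 1 (adjusted p = 0.11) or cKO replicate 1 (0.26) was omitted.

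In the list headed MDM2 regulators and other ubiquitin enzymes of p53, 6 of 17 genes fell and 4 rose (58.8% called, median -0.22). The 4 include Nek9, a kinase gene that the heading does not describe. Nek9, named after its value was seen, had the largest rise of the list (0.69, SE 0.09, limma adjusted p = 1.9e-06). Npm1, a nucleolar protein that can bind MDM2, fell 1.74-fold (log2 fold change -0.80, SE 0.03, limma adjusted p = 4.1e-17). Ribosomal proteins RPL5, RPL11 and RPL23 restrain MDM2 when ribosome assembly fails. Rpl23 fell by 0.46 (SE 0.04, adjusted p = 4.2e-10) and, named after their values were seen, Rpl11 fell by 0.26 (SE 0.05, adjusted p = 3.2e-04) whereas Rpl5 had no stable direction, with 0.06 (SE 0.02, adjusted p = 0.032) here, -0.063 scaled to the library sum and -0.19 under quantile normalization. Otub1, which shields p53 from ubiquitination, rose 1.46-fold (0.54, SE 0.03, adjusted p = 2.5e-13), and Rchy1, a ubiquitin ligase for p53, rose 1.42-fold (0.51, SE 0.06, adjusted p = 5.6e-08).

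Markers of other cell types differed between the groups alongside these changes. Of the 12 mature neutrophil markers looked for, 4 had a row, Lcn2, Mmp8, Mmp9 and Cxcr2, and all 4 were called higher in cKO. Over all genes tested, 19.5% were called higher. Their summed level was 349.3 to 373.8 per 1000000 in WT and 1119 to 1125 in cKO, while Ly6g, S100a8, S100a9, Camp, Ltf, Ngp, Retnlg and Csf3r had no row. Most of that rise lay in Mmp8 (55.2 and 62.7 in WT, 358.4 and 366.4 in cKO) and Mmp9 (226.9 and 240.6 in WT, 682.7 and 683.5 in cKO). Per 1000000, Lcn2 stood at 49.3 and 48.8 in WT and 52.7 and 53.8 in cKO. The Cxcr2 groups overlapped on this scale, with 17.9 and 21.9 in WT and 24.9 and 21.1 in cKO. Of 12 monocyte and macrophage markers, 9 had a row and 8 were tested, of which 5 rose and 0 fell, with sums of 6661 to 6772 in WT and 10593 to 10628 in cKO. Most of that gap is Lyz2, the lysozyme gene: the sums without it were 5538 and 5640 in WT and 5655 and 5747 in cKO. Adgre1, which makes up most of the remaining sum, was called higher on the log2 scale (0.09) but stood at 5165 and 5264 per 1000000 in WT and 5050 and 5138 in cKO, and fell by 0.20 under quantile normalization. Mrc1 and Ms4a7 were under 1 per 1000000 in each library. Of 10 erythroid markers 3 had a row and 2 fell (sums of 171.4 to 180.5 in WT and 127.1 to 133.0 in cKO), of 10 T and NK cell markers Gzmb alone had one and fell, and of 7 B cell markers Cd79b alone had one and rose. The part of these shifts in the lower p53 group was not tested, and in bulk RNA fewer cells of a type and less RNA per cell cannot be told apart.

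Over the 4 libraries, the genes with levels most like those of Trp53, by Euclidean distance of log2 levels centred on each gene's mean, were Ddx3x (0.03), Nop2 (0.03) and Eaf1 (0.04). For Mdm2 they were Rangap1 (0.01), Mrps7 (0.02) and Prpf38a (0.02). As 182 genes lay within 0.1 of Trp53 and 468 within 0.1 of Mdm2, these names describe closeness over 4 libraries only.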

How the data were processed

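The authors deposited 1 score per gene and library, on a log scale of unstated base, from -3.19 to 27.9. The submitters' processing notes name HISAT2 2.1.0, CASAVA, DESeq2 and featureCounts, and the build GRCm38, without saying what each did. Columns matched samples by title, with 0 other columns of values. Replicate noise served to find the scale: read as log2 times 1.44, it was 1.10 (WT) and 1.31 (cKO) times Poisson noise, treating back-transformed levels as reads, and read as plain log2 it was 4.83 and 5.90 times. Scores were therefore multiplied by 0.693. Back-transformed, the libraries summed to 11157952 and 11074317 (WT) and 12104617 and 12134026 (cKO); these are not counts, so depth is unknown.

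The filter kept the 15527 genes whose score reached 1 in 2 or more libraries. They were tested with limma 3.58.1 (R 4.3.3, trended prior variance, two-sided, Benjamini-Hochberg adjustment, threshold 0.05), and SEs are moderated. The test was checked on simulated data whose noise depended on level alone, so that check cannot judge the choice of prior variance. Python 3.11.15 (pandas 2.3.3, numpy 2.4.6, matplotlib 3.10.9) made tables and plots. Positions and exon lengths come from GENCODE M21, which held 27216 of the symbols, and promoters from RefSeq (GRCm38.p6). Of each pathway list up to 4 called genes with the smallest p-values are named, and for Trp53 and Mdm2 the 3 nearest genes other than predicted models. The genes and lists were chosen with earlier results of these data known. Alternatives covered filters, scale, normalization, prior variance, threshold, a replicate block and omission of each library.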

Additional observations from a re-analysis of the deposited data

How the results depend on the processing

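All 9 genes had a negative log2 fold change under each alternative and omission run, and Trp53 and Phlda3 kept their calls under each of them. Scaling to the library sum was chosen after the data were seen. An untrended prior variance gave 2267 calls (1177 higher, 1090 lower), with 2 among the 9 genes and 6 higher and 13 lower in the pathway lists. Aen (-0.42), Zmat3 (-0.45), Mdm4 (-0.26), Plk2 (-0.66) and Mdm2 (-0.10) then kept their fold changes and did not pass. Without a filter, Mdm2 (-0.10) and Plk2 (-0.66) did not pass, and with a common median Mdm2 (-0.038) did not. Scaled to the library sum, Trp53inp1 (-0.36) and Ei24 (-0.43) passed, 39 pathway genes were lower and 10 higher. Under quantile normalization Casp6 reversed to -0.044. The causes were not tested.

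Over the omissions of 1 library, the log2 fold change ran from -0.14 to -0.063 for Mdm2, from -0.82 to -0.51 for Plk2 and from -0.49 to -0.11 for Ei24; the lone library left in a group is then assumed to vary like the others. Deviations of same-numbered libraries from their group means were nearly uncorrelated between the groups (0.013 over 15527 genes). This cannot show whether such libraries were prepared together, which the labels do not say. With the replicate block 6026 genes were called, Ei24 (-0.30) passed at a limma adjusted p of 0.047, and no other call among the 9 genes changed. Depth is unknown, so no counting error is given.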

Other observations

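Trp53inp2 and Wrap53 were looked at after their values were seen. Trp53inp2, the relative of Trp53inp1 known for a role in autophagy, had log2 levels of 8.19 and 8.19 in WT and 9.03 and 8.94 in cKO. It rose 1.74-fold (log2 fold change 0.80, SE 0.08, limma adjusted p = 3.2e-08), with both cKO libraries above both WT libraries, whereas Trp53inp1 was lower in both cKO libraries without passing the test. Wrap53, the neighbour of Trp53 that is transcribed from the other strand and encodes a telomerase and Cajal body protein, had log2 levels of 7.82 and 7.85 in WT and 7.44 and 7.59 in cKO. It fell 1.24-fold (log2 fold change -0.32, SE 0.12, limma adjusted p = 0.034). Wrap53 did not pass under quantile normalization (adjusted p = 0.076) or with a common median (0.090). None of the sources used here says whether reads were counted by strand, but in GENCODE M21 the exons of Trp53 share no base with another gene.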
